A study of Macaca mulatta with 13 samples.

Results

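Granzyme B RNA was found in 448 of 1971 CD4 T cells (22.7%, 95% exact binomial interval 20.9 to 24.6) among 20567 single leukocytes of rhesus macaque colon. These cells were chosen by a gate on raw UMI counts (unique molecular identifiers, tags that count RNA molecules rather than reads). A T cell had at least 3 UMIs of CD3D, CD3E and CD3G together, more of these than of the B cell genes MS4A1 and CD79A, and under 1% of its UMIs from JCHAIN, a plasma cell gene. A CD4 T cell also had at least 1 UMI of CD4 and 0 of CD8A, and a GZMB+ CD4 T cell had at least 3 UMIs of GZMB. Of the other CD4 T cells, 214 had 1 or 2 UMIs of GZMB and 1309 had 0. The gate fixes GZMB, CD4, CD8A, the CD3 genes, MS4A1, CD79A and JCHAIN, so the levels of these genes describe the choice and are not results.

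Granzyme B is a serine protease that killer lymphocytes store in granules with granzyme A, perforin and granulysin. Perforin opens the membrane of the target cell, and the granzymes then cleave proteins inside it and start its death. Most cells of this kind are CD8 T cells or natural killer (NK) cells, but CD4 T cells can also take on a killing programme, and granzyme B has also been described in regulatory T cells and in CD4 cells that make IL-10. In acute graft-versus-host disease (GVHD) the gut is a main target of donor T cells.

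The cells came from colons of macaques with GVHD after transplantation of allogeneic blood-forming cells and of untransplanted healthy controls, sorted as viable, CD45 positive (a leukocyte protein) and negative for the CD45 label that the protocol marks IVas. The 13 labelled libraries are 4 host fractions, 2 donor fractions, 3 samples of host and donor cells together and 4 healthy controls. Barcodes carry a library number, 1 to 13, and the sources used here do not tie these numbers to the labels. The libraries are therefore named by barcode number, no host, donor or healthy comparison was made, and no p-value is given, since the classes of cells were cut from the same counts and the libraries are not tied to animals.

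Libraries 4 and 6 shared 5323 barcodes against 6 to 55 for other pairs of their set, and all 39 cells that the authors kept from library 4 were also kept in library 6, so library 4 was left out. The libraries were put in 2 sets, libraries 1 to 7 and libraries 8 to 13, by whether they shared more barcodes with library 1 or library 11. Pairs across the sets share 0 to 3 barcodes and pairs inside the second set 1 to 10, so these ranges overlap. Library 5 stood apart in its GZMB level, and the share of GZMB+ cells, the counts of genes and the shares of cells with GZMA, PRF1 or IL10 are given with and without it.

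The share of CD4 T cells with GZMB ran from 3.95% to 77.2% over the 9 libraries with at least 50 CD4 T cells, with a median of 14.2%. Library 5 was highest, with 78 of 101 cells (77.2%, 67.8 to 85.0), followed by library 1 with 137 of 380 (36.1%, 31.2 to 41.1). The intervals of libraries 1, 13 (16 of 54, 29.6%) and 2 (107 of 425, 25.2%) overlap between neighbours. Lower shares were found in library 11 (62 of 438, 14.2%), library 12 (15 of 125, 12.0%) and library 3 (10 of 98, 10.2%). The lowest were library 9 (14 of 247, 5.67%) and library 8 (3 of 76, 3.95%). Libraries 6 and 10 held 16 and 11 CD4 T cells, of which 5 and 1 had GZMB, and library 7 held none. Within the first barcode set the median share was 30.6%, and within the second it was 12.0%. Without library 5 the pooled share was 19.8%. All intervals cover counting error only, since cells of 1 library are not replicates of a condition.

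**Figure D1:**
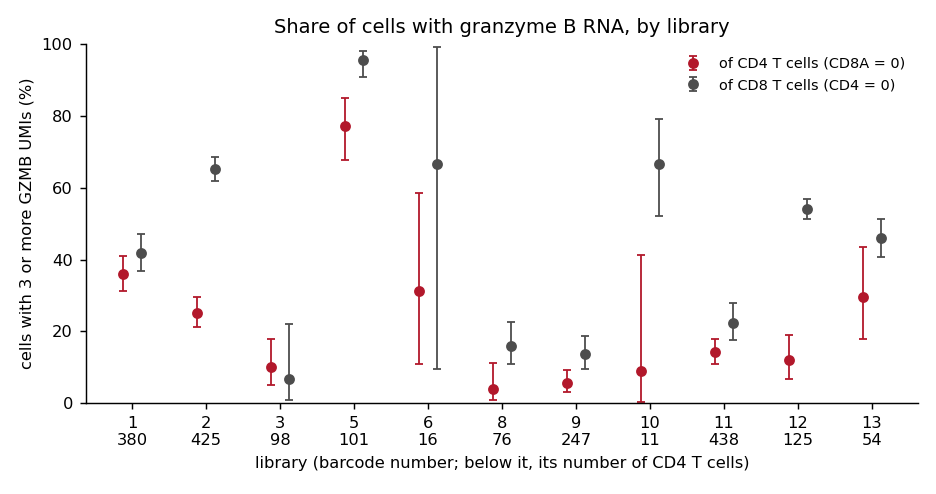
Percent of cells with at least 3 GZMB UMIs (vertical axis) among CD4 T cells (red) and CD8 T cells (grey) in each library with at least 10 CD4 T cells (horizontal axis, with the number of CD4 T cells). Bars are 95% exact binomial intervals; the CD4 share runs from 3.95% in library 8 to 77.2% in library 5 among libraries with at least 50 CD4 T cells, and library 5 is highest for CD8 T cells too.

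GZMB was also common in CD8 T cells, defined here by at least 1 UMI of CD8A and 0 of CD4: 1848 of 3720 had at least 3 UMIs, and the share over the same 9 libraries ran from 6.67% to 95.5% with a median of 41.8%. Of all 3694 T cells with at least 3 GZMB UMIs, the CD4 gate held 12.1%. A further 1208 had neither CD4 nor CD8A UMIs and 190 had both, so many T cells with GZMB could not be placed by these genes at this depth.

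As a description of the gate, the selected cells held 3 to 571 GZMB UMIs with a median of 12, and 46 of them lay at the minimum of 3. In library 5 the median was 35.5 UMIs and the summed level 14706 CPM (a gene's UMIs summed over cells and scaled to one fixed total of UMIs), against 2381 to 4852 CPM in the other libraries with at least 10 such cells. Just inside the threshold, at 3 or 4 UMIs, 78 cells had a summed GZMA level of 195 CPM, and just outside it, at 1 or 2 UMIs, 214 cells had 149 CPM. GNLY was at 681 CPM inside and 515 CPM outside, NKG7 at 389 and 332, and CCL5 at 307 and 64.2.

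Free RNA in the droplets can give a cell a GZMB UMI that it did not make, so GZMB was counted in cells that should lack it. Over all libraries 16 of 3837 B cells (0.417%) had at least 3 GZMB UMIs, at a median depth of 3679 UMIs per cell against 3784.5 in the GZMB+ CD4 T cells. Libraries 1, 2 and 5 held 137, 107 and 78 GZMB+ CD4 T cells but only 2, 60 and 9 B cells. The pooled share therefore describes mainly other libraries. Library 1 had 14 plasma cells, so free GZMB RNA was barely measured there. In library 5, 0 of 63 plasma cells had 3 or more, which allows a share of up to 4.76% by 3 counts of the total and 5.69% by the exact 95% bound, although their median depth was 19446 UMIs, and 12 had at least 1. Those plasma cells held a mean of 0.222 GZMB UMIs per cell and at most 2, where the CD4 T cells of the same library held a mean of 50.5. The 9 B cells of library 5 held at most 1 each. After every cell was thinned to 1500 UMIs, which left out none, 71.3% of the CD4 T cells of library 5 had at least 3. Its plasma cells held at most 2 before thinning, so their 0% was fixed in advance and is no result. No plasma or B cell of library 5 had 3 GZMB UMIs. Among the 428 barcodes of library 5 that the authors did not keep, 182 (42.5%) had at least 1 GZMB UMI and 129 (30.1%) at least 3, at a summed level of 5980 CPM, where those of the other libraries had 56.5 to 3888.5 CPM. These barcodes were not sorted into cell types, and their part in the level of library 5 was not tested.

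**Figure D2:**
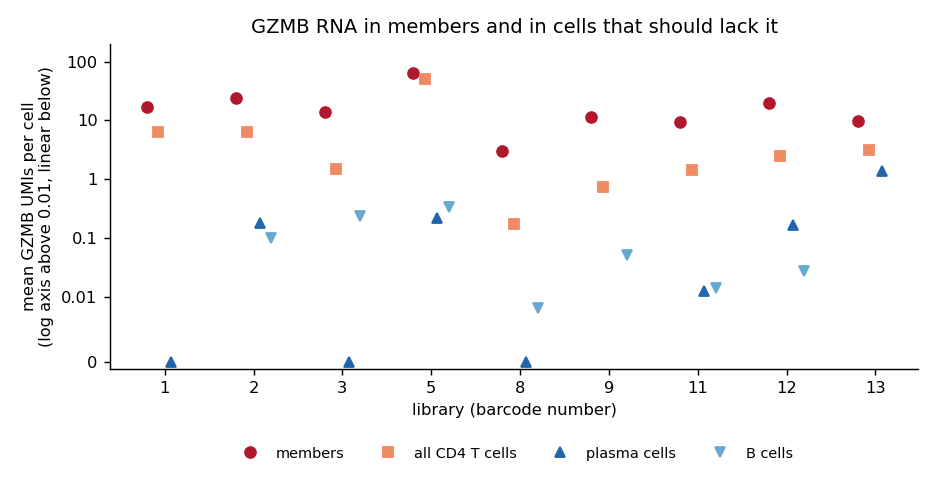
Mean GZMB UMIs per cell (vertical axis, logarithmic above 0.01 and linear below) by library (horizontal axis) in GZMB+ CD4 T cells (called members in the legend, at least 3 cells), all CD4 T cells, plasma cells and B cells (at least 9 cells each). In library 5 the CD4 T cells average 50.5 UMIs and the plasma cells 0.222, while library 13 has plasma cells with a mean of 1.39.

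A few plasma cells carried at least 3 GZMB UMIs in 3 other libraries, 7 of 340 in library 10, 1 of 253 in library 12 with 26 UMIs, and 15 of 331 in library 13, where 1 plasma cell held 293 UMIs. Plasma cells held 0.0278 GZMA UMIs per GZMB UMI in library 10, 0.214 in library 12 and 0.00652 in library 13. The B cells of library 3 held 9 cells with 3 or more GZMB UMIs, up to 128. In these libraries plasma and B cells are not a pure measure of free RNA.

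Other markers bore on the label as follows. CD8B, the second chain of the CD8 coreceptor and no part of the gate, had a UMI in 1 of 448 GZMB+ CD4 T cells (0.223%) and in 180 of 1848 GZMB+ CD8 T cells (9.74%). It was found in 11 of the 190 cells with both CD4 and CD8A (5.79%) and in 51 of the 1208 with neither (4.22%). CD4 itself rests on a single UMI in 301 of the 448 cells, and a CD4 UMI was found in 1.20% of B cells and 0.268% of plasma cells. It was more common in GZMB+ T cells with CD8A, of which 190 had a CD4 UMI and 1848 had none. In library 2 these numbers were 107 and 533, beside 107 GZMB+ CD4 T cells, and in library 1 they were 44 and 151. The source of the CD4 UMIs in cells with CD8A was not tested. NCR1, KLRF1 and SH2D1B, defining genes of NK cells, were at 0 in the GZMB+ CD4 T cells. They were rare elsewhere too, in 0.229%, 0% and 0.0764% of CD4 T cells without GZMB and 1.14%, 0.271% and 0.649% of GZMB+ CD8 T cells. Other markers of this list were found more often with GZMB than without. These were TYROBP (12.7% and 6.42%), IL1R1 (15.2% and 7.18%), FCER1G (1.56% and 0.840%) and KIT (1.12% and 0%). Summed over 8 NK or innate lymphoid markers the level ran from 26.8 to 614 CPM over libraries in the GZMB+ CD4 T cells and from 0 to 343 CPM in the CD4 T cells without GZMB.

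Plasmacytoid dendritic cells hold both CD4 and GZMB RNA. CLEC4C, one of their defining genes, was at 0 in the GZMB+ CD4 T cells, the CD4 T cells without GZMB and the GZMB+ CD8 T cells alike. Their 6 markers summed to 5.78 to 91.9 CPM over libraries in the GZMB+ CD4 T cells and to 0 to 69.9 CPM in those without GZMB. Of these IRF8 had a UMI in 7.37% and 5.19% of cells, IL3RA in 3.13% and 2.52%, and TCF4 in 0.223% and 0.993%.

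The 7 B cell markers, which include gate genes, summed to 0 to 884 CPM with GZMB and 0 to 858 CPM without. MZB1, a plasma cell gene outside the gate, had a UMI in 14.3% of the GZMB+ CD4 T cells, 5.65% of those without GZMB and 17.9% of the GZMB+ CD8 T cells, and the 6 plasma cell markers summed to 180 to 387 CPM over libraries with GZMB and 58.8 to 685 CPM without. With all libraries pooled, the epithelial genes EPCAM (2.90% and 0.535% of cells), KRT18 (5.13% and 1.68%) and KRT19 (4.46% and 1.45%) were found more often with GZMB. Over libraries the median share with GZMB was 0% for each, and the highest were 8.76%, 15.3% and 13.1%. The pooled shares thus rest on few libraries. The 4 epithelial markers summed to 0 to 82.5 CPM with GZMB and 0 to 145 CPM without, with CDH1 at 0 in both. The part of this RNA in the ratios given below was not tested.

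The 11 myeloid markers summed to 19.6 to 6996 CPM over libraries in the GZMB+ CD4 T cells (median 49.2) and to 0 to 9585 CPM in the CD4 T cells without GZMB (median 12.1). Myeloid RNA sat in few cells: 7 of the 448 (1.56%) and 13 of the 1309 (0.993%) had at least 5 UMIs of LYZ, S100A8, S100A9, FCN1, CD14 and AIF1 together, with median depths of 13400 and 12256 UMIs. Of these, 6 and 10 were in library 1. The counts of genes that differ were close without them, with 1389 genes higher and 847 lower in place of the 1378 and 831 given below. Of the 1378 higher genes 87.7% were also higher without them.

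Every later comparison was made inside libraries, as the log2 ratio of summed CPM between 2 classes of cells with a prior count of 2. GZMB+ CD4 T cells and CD4 T cells without GZMB both reached 20 cells in libraries 1, 2 and 11, and library 5 missed by 1 cell, with 19 cells without GZMB. In all 3 libraries the GZMB+ cells were higher in 1378 of 7199 measured genes (19.1%) and lower in 831 (11.5%). With at least 10 cells of both classes 8 libraries entered, and 99 of 5850 genes (1.69%) were higher and 82 (1.4%) lower in all 8. The median gene differed by 0.06 on the log2 scale. Scaling by the median ratio moved the share of higher genes among all those with 1 direction from 62.4% to an even split, with 1089 higher and 1089 lower. Without library 1, 2432 genes were higher and 1284 lower in the 2 libraries left, and 1409 were lower without library 2 and 1292 without library 11. GZMB+ cells were deeper, with a median of 3784.5 UMIs against 3119, and the part of depth in these ratios was not tested beyond the thinned values in the closing section.

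The granule genes were higher together in the GZMB+ CD4 T cells. Of 14 measured genes of a killing list, 9 were higher in all 3 libraries (GZMA, GZMK, PRF1, GNLY, NKG7, CST7, SRGN, RAB27A and STX11) and 2 were lower (GZMM and UNC13D), at a median log2 ratio of 0.80 where all genes had 0.06. PRF1 had 5, 46 and 2 UMIs in the GZMB+ cells of libraries 1, 2 and 11 and 1, 12 and 5 in those without GZMB. It passed the filter only through the GZMB+ cells, so its call is no result. In all 8 libraries GZMA, GNLY, NKG7, CST7 and STX11 were higher and none of the 12 measured was lower. RAB27A (0.14) had -0.35 in cells thinned to 1500 UMIs, and UNC13D (-0.41) had 0.08 where CD4 needed 2 UMIs. Both settings left only libraries 1 and 2 with 20 cells of both classes, here and below.

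Granzyme A, the most abundant partner of granzyme B in killer cells, differed most. In the GZMB+ CD4 T cells GZMA was at 327 CPM in library 1, 2894 in library 2, 161 in library 3, 14688 in library 5, 149.8 in library 9, 948 in library 11, 459 in library 12 and 313 in library 13. CD4 T cells without GZMB in the same libraries held 19.1, 217, 24.0, 28.0, 9.05, 14.8, 12.9 and 95.2 CPM. Every library was higher in the GZMB+ cells, and the level in library 13 of the GZMB+ cells was the one closest to the other class. The median log2 ratio was 3.92 over libraries 1, 2 and 11 (3.72 to 5.74) and 3.82 over all 8 (1.44 to 8.61). A GZMA UMI was found in 236 of 448 GZMB+ cells (52.7%) and in 83 of 1309 without GZMB (6.34%). At 1500 UMIs per cell these shares were 42.2% and 3.21%. In unthinned B cells, few of them in libraries 1, 2 and 5, the share was 0.652%. Without library 5 the shares of the CD4 classes were 46.8% and 6.28%. In the remaining GZMB+ cells GZMA was not detected at this depth.

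Granulysin, a membrane-lysing peptide of the same granules, was higher in every library too. Its gene GNLY stood at 348 to 2414 CPM in the GZMB+ cells and at 33.2 to 811 CPM in those without GZMB, with a median log2 ratio of 2.86 in 3 libraries (1.95 to 3.70) and 2.45 in 8 (1.56 to 4.69). NKG7, a granule membrane protein, had a median of 1.20 in 3 libraries and 1.96 in 8 (0.62 to 3.16), and the protease inhibitor gene CST7 one of 1.996 and 1.75 (0.50 to 2.59). Syntaxin 11, which takes part in granule release, had a smaller ratio for STX11, 1.03 and 0.96 (0.31 to 1.85).

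Perforin RNA was low. PRF1 had a UMI in 51 of 448 GZMB+ CD4 T cells (11.4%), in 24 of 1309 without GZMB (1.83%) and in 685 of 1848 GZMB+ CD8 T cells (37.1%). Of its 132 UMIs in the 8 libraries, 76 were in library 5 and 46 in library 2, and libraries 3 and 12 had 0. Without library 5 a PRF1 UMI was found in 26 of 370 GZMB+ CD4 T cells (7.03%), 1.86% of those without GZMB and 34.1% of GZMB+ CD8 T cells. Both granzyme A and perforin were found in 44 GZMB+ CD4 T cells (9.82%), 0.535% of those without GZMB and 31.5% of GZMB+ CD8 T cells, and without library 5 in 19 (5.14%), 0.543% and 28.1%. GZMA with GNLY was more common, in 37.1% of the GZMB+ CD4 T cells (32.6 to 41.7), 2.14% of those without GZMB and 65.4% of the GZMB+ CD8 T cells.

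**Figure D3:**
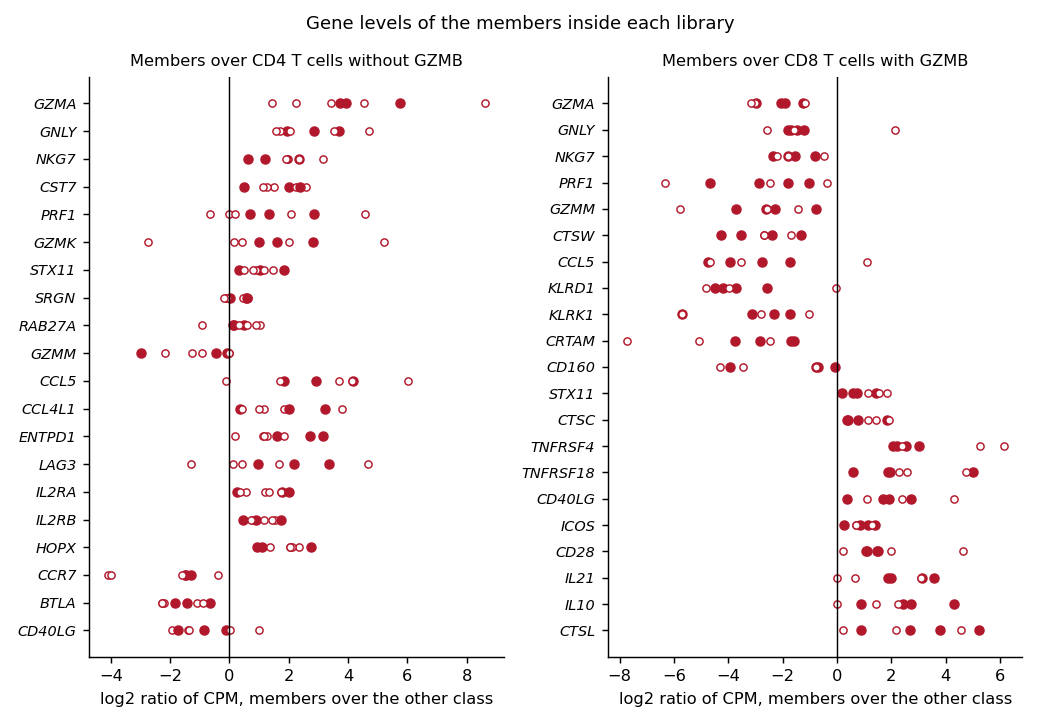
Log2 ratio of CPM (horizontal axis) for chosen genes (vertical axis) in GZMB+ CD4 T cells over CD4 T cells without GZMB (left) and over GZMB+ CD8 T cells (right). Each point is 1 library, filled with at least 20 cells of both classes and open with 10 to 19; GZMA and GNLY lie right of 0 in all 8 libraries on the left, and TNFRSF4 lies right of 0 in all 7 on the right.

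Among the GZMB+ CD4 T cells, GZMA was higher where GZMB was higher in each of the 4 libraries with at least 10 cells on either side of 10 GZMB UMIs. In library 1 it was at 90.4 CPM in the 69 cells with 3 to 9 GZMB UMIs and 519.8 CPM in the 68 with 10 or more. The same values were 1188 and 3679 in library 2, 896 and 16555 in library 5, and 446 and 1931 in library 11. NKG7 and GNLY were also higher in the cells with more GZMB in these 4 libraries, with GNLY at 888 and 1113 CPM in library 1 and 557 and 2666 in library 5. CCL5 was higher in libraries 2, 5 and 11 and not in library 1, at 455 and 368 CPM. Median depths were 3915 and 4611.5 UMIs in library 1 and 4336 and 4294.5 in library 2, 2988 and 4016 in library 5, and 3148 and 3608 in library 11. Both genes were counted in the same cells, so this is a description.

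**Figure D4:**
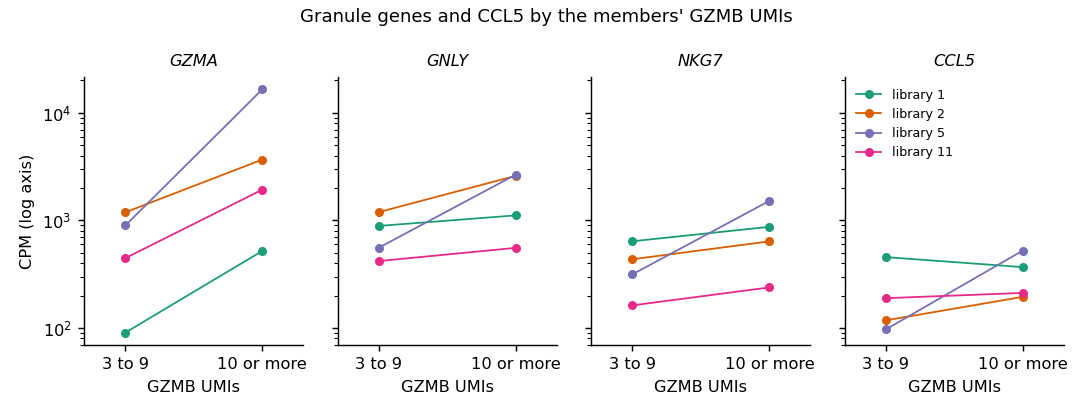
Summed level in CPM (vertical axis, logarithmic) of GZMA, GNLY, NKG7 and CCL5 in GZMB+ CD4 T cells with 3 to 9 and with 10 or more GZMB UMIs (horizontal axis), 1 line per library with at least 10 cells of each kind. GZMA is higher at 10 or more UMIs in all 4 libraries, from 896 to 16555 CPM in library 5, and CCL5 is lower there only in library 1.

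The balance of the granzymes differed between libraries. GZMB+ CD4 T cells held 0.999 GZMA UMIs per GZMB UMI in library 5, 0.597 in library 2, 0.358 in library 11 and 0.0958 in library 1. GZMB+ CD8 T cells of the same libraries held 1.003, 0.747, 0.639 and 0.340. Library 5 had nearly the same balance in both classes, and the other 3 had less GZMA per GZMB in the CD4 cells. Libraries 3, 9, 12 and 13, with 10 to 16 GZMB+ CD4 T cells each, held 0.0432 to 0.116.

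Chemokines that recruit other T cells and macrophages were higher with GZMB. CCL3, CCL4L1 and CCL5 were the 3 of 12 measured type 1 genes higher in all 3 libraries, at median log2 ratios of 2.80, 2.01 and 2.90, while LTB (-0.46) was lower. The list's median was 0.43, and 3 of 12 lies near the 19.1% of all measured genes that were higher. CCL4L1 alone was higher in all 8 libraries (0.35 to 3.78). CCL5 was higher in 7 of 8, with 407 against 52.1 CPM in library 1 and 1797 against 22.6 in library 9, and the exception was library 3 with 187 against 202 CPM. IFNG, the type 1 effector cytokine, was higher in libraries 1 (1.99) and 2 (1.49) and lower in library 11 (-0.59).

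Receptors of activated and regulatory T cells formed the list that was most often higher. Of 9 measured genes, IL2RA, CTLA4, IKZF2, TNFRSF18, TNFRSF4, TNFRSF1B, TIGIT and ENTPD1 were higher in all 3 libraries and none was lower, at a median of 1.21. IL2RA, the alpha chain of the IL-2 receptor, was higher in all 8 libraries, at 352 to 839 CPM against 137 to 394, with a median ratio of 1.27 (0.24 to 1.997). TIGIT (0.70 in 8 libraries, 0.20 to 2.13), TNFRSF1B (1.17, 0.28 to 1.68) and ENTPD1 (1.43, 0.18 to 3.14) were also higher in all 8. ENTPD1 encodes CD39, which breaks down extracellular ATP, and its UMIs were found in 37.3% of the GZMB+ cells and 5.58% of those without GZMB. FOXP3, which defines the regulatory lineage, did not pass the filter for this comparison, with a UMI in 7 of 448 GZMB+ cells (1.56%) and 10 of 1309 without GZMB (0.764%). TNFRSF18 (0.72) and TNFRSF4 (0.38) had -0.40 and -0.14 where CD4 needed 2 UMIs.

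IL10 RNA was more common with GZMB in the cells of all libraries together. An IL10 UMI was found in 67 of 448 GZMB+ CD4 T cells (15.0%), 26 of 1309 without GZMB (1.99%) and 40 of 1848 GZMB+ CD8 T cells (2.16%). In B cells, few of them in libraries 1, 2 and 5, the share was 1.54%. At 1500 UMIs per cell the shares were 8.71%, 1.299% and 1.08% of the T cell classes, and without library 5 they were 11.9%, 1.94% and 1.59% unthinned. The GZMB+ share was 35.5% in library 11 (22 of 62) and 29.5% in library 5 (23 of 78), against 1.73% and 5.26% of the cells without GZMB there. It was 12.1% against 2.88% in library 2, 2 of 14 against 2.30% in library 9, 1 of 10 against 2.47% in library 3 and 1 of 15 against 0.990% in library 12, and library 13 had 0 of 16 and 0 of 28. In library 1 the share was 4 of 137 (2.92%) against 3 of 186 (1.61%), while the summed level was lower with GZMB, at 17.4 CPM against 76.3. All 60 IL10 UMIs of the latter lay in cells with at least 5 myeloid UMIs, and without such cells library 1 had 2 IL10 UMIs in 131 GZMB+ cells and 0 in 176. Without them the pooled shares were 14.3% and 1.70%.

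Inhibitory receptors were higher as well, with 5 of 7 measured in all 3 libraries (PDCD1, LAG3, TIGIT, CTLA4 and ENTPD1) at a list median of 1.03. LAG3, which binds MHC class II, was at 750.0 against 163 CPM in library 2 and 787 against 74.2 in library 11, but at 19.6 against 95.2 in library 13. BTLA was lower in all 8 libraries, at a median of -1.64 (-2.28 to -0.67). It had a UMI in 19 of 448 GZMB+ cells and 111 of 1309 without GZMB, and passed the filter mainly through the latter. Of 6 measured receptors for common gamma chain cytokines, IL2RA, IL2RB and IL15RA were higher in all 3 libraries, and IL2RB, shared by the receptors for IL-2 and IL-15, in all 8 (0.47 to 1.75). IL7R, the receptor of resting T cells for IL-7, ran from -1.29 to 0.05 in the 3 libraries.

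Among genes of circulation through lymph nodes, CCR7 is the lower call that stands. CCR7, LEF1 and TCF7 were lower in all 3 libraries and ITGB2 was higher among 8 measured, at a list median of -0.85. TCF7 had a UMI in 5 of 448 GZMB+ cells and 74 of 1309 without GZMB, and LEF1 in 17 and 152. TCF7 and LEF1 passed the filter mainly through the cells without GZMB, so their calls are no result. CCR7, the receptor that guides T cells into lymph nodes, was lower in all 8 libraries, at 0 to 209.7 CPM against 91.7 to 316, with a median of -1.52 (-4.09 to -0.37). A CCR7 UMI was found in 14.3% of GZMB+ cells and 30.6% of those without GZMB. TCF7 had 0.22 in thinned cells, against -1.06. Of 12 residency genes ITGAE, RGS1, RGS2, PDCD1, RUNX3 and KLRB1 were higher and CD69 and NR4A1 lower in all 3 libraries, at a median of 0.47, and none went 1 way in all 8. ITGAE, the alpha chain of an integrin that binds epithelium, had a median of 0.73 in 3 libraries (0.28 to 0.97) and ran from -0.41 to 1.60 over 8.

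Of 20 measured transcription factors, RUNX3, RUNX1, PRDM1, HOPX, TOX, IKZF2, IRF4 and BATF were higher in all 3 libraries, at a list median of 0.35. TCF7, LEF1, NFATC1 and NR4A1 were lower, with the limit on TCF7 and LEF1 given above. HOPX, found in effector and resident T cells, was the 1 factor higher in all 8 libraries, with a median of 2.04 (0.94 to 2.75). EOMES and TBX21, the main factors of killer cells, were below the filter, with UMIs in 3 and 2 of 448 GZMB+ cells. Of 13 interferon-stimulated genes 7 were higher in all 3 libraries, IFIT2 was lower, and ISG15 (0.25 to 1.46) and BST2 (0.06 to 1.22) were higher in all 8. The type 17 and type 2 list had 7 of 10 higher in all 3 libraries (IL22, IL23R, IL1R1, CCL20, MAF, AHR and GATA3) and 0 of 8 measured in all 8, at a median of 0.38. IL1R1 turned to -0.93 in thinned cells. Follicular help genes did not share a direction. Of 10, PDCD1 and TNFRSF4 were higher and CD40LG was lower, near the 19.1% and 11.5% of all measured genes. The list median was -0.08, and CD40LG was at a median of -0.86.

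By size of the median over libraries 1, 2 and 11, the highest genes were GZMA, CCL5, GNLY, CCL3, ENTPD1, LAG3, PERP (2.16), CGA (2.14), TSPAN2 (2.02) and CDKN2B (2.01). The lowest were UBE2E2, FBXL4, OAT, GSR, SIPA1L2, TBC1D22B, LEF1, NUCB2, CR1 and CCR7. FBXL4, OAT, GSR, SIPA1L2, TBC1D22B and CR1 had a UMI in 4, 8, 8, 6, 11 and 12 of 448 GZMB+ cells. Without GZMB the counts were 37, 42, 58, 78, 46 and 111 of 1309. They passed the filter mainly through the cells without GZMB, as LEF1 did, so the places of these genes and of LEF1 are no result. CGA turned to -0.04 in thinned cells, GSR to 0.33 with 2 CD4 UMIs and TBC1D22B to 0.01 with a GZMB minimum of 1. Over 8 libraries GZMA, GNLY, HOPX, NKG7, SPINK2 (1.77), CST7, CCL4L1, CTSC (1.49), ENTPD1 and SYTL2 (1.42) led. CTSC, cathepsin C, removes the dipeptide that keeps granzymes inactive, and SYTL2 takes part in vesicle docking. BTLA, CCR7, DPYSL2, CR1, PECAM1, CR2, GNPDA2, DDIT4, SLC2A3 and MFSD12 were lowest there, among them the complement receptors CR1 (-1.42) and CR2 (-1.01). The same limit holds for CR1 and for DPYSL2, CR2, GNPDA2, BTLA and MFSD12. These 5 had a UMI in 10, 10, 11, 19 and 18 of 448 GZMB+ cells, against 61, 122, 85, 111 and 113 of 1309. MFSD12 had 0.08 in libraries 1 and 2 with a GZMB minimum of 10.

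The GZMB+ CD4 T cells were next compared with GZMB+ CD8 T cells, which share the GZMB minimum, in libraries 1, 2, 5 and 11. In all 4 the CD4 cells were higher in 731 of 7127 measured genes (10.3%) and lower in 546 (7.66%). With at least 10 cells of both classes 141 of 6804 (2.07%) were higher and 115 (1.69%) lower in all 7 libraries. Without library 5 the counts were 1213 and 830, without library 1 1349 were higher, and without library 11 1122 were lower. Median depths were 3784.5 and 3560.5 UMIs, and the median gene differed by 0.00. Both comparisons share the GZMB+ CD4 T cells.

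Granule genes were lower in the CD4 cells than in the CD8 cells. Of 16 measured, 9 were lower in all 4 libraries (GZMA, GZMK, GZMM, PRF1, GNLY, NKG7, CTSW, UNC13D and SLAMF7) and SRGN and STX11 were higher. The list median was -0.90. GZMM, CTSW and SLAMF7 had a UMI in 20, 4 and 10 of 448 CD4 cells, against 562, 234 and 211 of 1848 CD8 cells. They passed the filter mainly through the CD8 cells, so their calls are no result. GZMA was at 327, 2894, 14688 and 948 CPM in libraries 1, 2, 5 and 11 of the CD4 cells and at 2571, 10951, 34760 and 4027 CPM in the CD8 cells, a median log2 ratio of -1.998 (-2.96 to -1.24), and it was lower in all 7. PRF1 had -2.33 (-4.67 to -1.02), with 7.24, 85.2, 219 and 8.94 CPM against 258, 627, 448 and 53.5. GNLY had -1.60 in the 4 libraries and was higher in the CD4 cells in library 9, at 1108 against 234 CPM. SRGN, serglycin, the proteoglycan that holds granzymes in the granule, had 0.80 (0.34 to 0.93).

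Some NK-type receptors were found more often in the CD8 cells. Of 8 measured, KLRD1, KLRK1, KIR2DL4, CD244 and CD160 were lower in the CD4 cells in all 4 libraries and none was higher. The list median was -1.14. In that order they had a UMI in 19, 11, 8, 2 and 15 of 448 CD4 cells, against 731, 428, 75, 94 and 345 of 1848 CD8 cells. They passed the filter mainly through the CD8 cells, so the count of calls is no result. KLRD1 (CD94), a chain of NK receptors for nonclassical MHC, was at 8.94 to 23.1 CPM in the CD4 cells and 145 to 486 in the CD8 cells of these libraries, a median of -3.95, and its UMIs were found in 4.24% against 39.6% of cells. KLRK1 (NKG2D) had -2.73 and CRTAM, a receptor of activated killer T cells, -2.26 (-3.75 to -1.59). CCL5 had -3.35 in the 4 libraries, and library 9 again went the other way (1.11). The 10 lowest genes were KLRD1, CCL5, CTSW, KLRK1, CD8B, GZMM, JAML, PRF1, CRTAM and EOMES. EOMES passed the filter only through the CD8 cells, with a UMI in 71 of 1848 (3.84%) against 3 of 448 CD4 cells. CTSW (234 against 4 cells), CD8B (180 against 1), GZMM (562 against 20) and CRTAM (566 against 16) passed mainly through them, as did KLRD1 and KLRK1. The places of these genes in this order are no result.

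Helper and costimulatory genes marked the CD4 cells. Of 9 measured follicular help genes, CD40LG, ICOS, IL21, PDCD1, CD200 and TNFRSF4 were higher in all 4 libraries and none was lower, at a median of 1.18. CD40LG, IL21 and CD200 had a UMI in 38, 70 and 21 of 448 CD4 cells, against 19, 21 and 14 of 1848 CD8 cells. They passed the filter mainly through the CD4 cells, so their calls, here and below, are no result. Of 13 costimulation genes CD28, ICOS, CD40LG, TNFRSF4 and TNFRSF18 were higher and none lower, at a median of 0.84, and these 5 were higher in all 7 libraries. TNFRSF4 (OX40), a costimulatory receptor of activated CD4 T cells, was at 132, 735, 11.6 and 277 CPM in libraries 1, 2, 5 and 11 against 25.8, 127, 0 and 26.8, a median of 2.37. Library 5 was low in both classes. CD40LG, the CD4 helper ligand for B cells, had 1.82 (0.36 to 2.72) but only 9.26 to 49.2 CPM in the CD4 cells. IL21, a helper cytokine, was found in 15.6% of GZMB+ CD4 T cells, 13.6% of those without GZMB and 1.14% of GZMB+ CD8 T cells, with a median log2 ratio of 2.57 over the CD8 cells and -0.33 over the CD4 cells without GZMB.

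By size the 10 highest genes over the CD8 cells were CTSL (3.24), IL10 (2.59), IL21, TNFRSF4, RTKN2 (2.25), FABP5 (1.95), TNFRSF18 (1.92), F5 (1.88), CD40LG and PROC. RTKN2, F5 and PROC had a UMI in 27, 21 and 18 of 448 GZMB+ CD4 T cells, against 8, 16 and 8 of 1848 GZMB+ CD8 T cells. Like IL21 and CD40LG, they passed the filter mainly through the CD4 cells, so the places of these genes are no result. CTSL, the lysosomal protease cathepsin L, was at 209 to 620.4 CPM in the 4 libraries against 0 to 111, and was found in 50.9% of GZMB+ CD4 T cells, 38.1% of those without GZMB and 8.77% of GZMB+ CD8 T cells. Over CD4 T cells without GZMB its median was 0.61 in 3 libraries and -0.06 in 8. The regulatory list had TNFRSF18, TNFRSF4, TNFRSF1B and IL10 higher and none lower of 10. Its median was 1.13 but ran from -0.24 to 2.68 between libraries. In library 1 IL10 had 12 UMIs in 137 GZMB+ CD4 T cells and 5 in 151 GZMB+ CD8 T cells. Without cells with at least 5 myeloid UMIs it had 2 in 131 and 5 in 150. Its higher level in library 1, and so its call and place above, rested on such cells. RUNX3 (-0.30) and HOPX (-1.18) were lower than in the CD8 cells in all 4 libraries, and RUNX1, ZBTB7B and BATF were higher. ZBTB7B, the factor that commits thymocytes to the CD4 lineage, had a median of 0.80 (0.01 to 1.28).

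**Figure D5:**
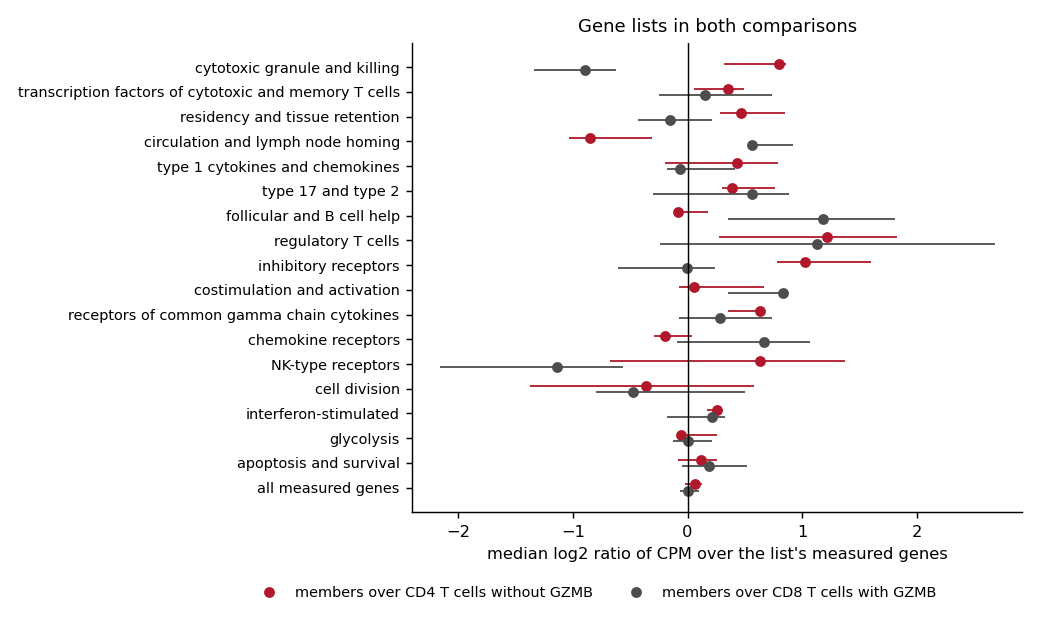
Median log2 ratio (horizontal axis) over the measured genes of each list (vertical axis) in GZMB+ CD4 T cells over CD4 T cells without GZMB (red, libraries 1, 2 and 11) and over GZMB+ CD8 T cells (grey, libraries 1, 2, 5 and 11). Points are medians of the genes' medians, lines span the list's medians in single libraries; the granule list lies at 0.80 and -0.90 and follicular help at -0.08 and 1.18, where all measured genes lie at 0.06 and 0.00.

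Shares of cells with a UMI, with all libraries pooled, set the 3 classes side by side for single genes. The classes are spread unevenly over libraries, and library 12 held 695 of the 1848 GZMB+ CD8 T cells and 15 of the 448 GZMB+ CD4 T cells. GZMA had a UMI in 6.34% of CD4 T cells without GZMB, 52.7% of the GZMB+ CD4 T cells and 69.8% of GZMB+ CD8 T cells, and GNLY in 14.3%, 58.9% and 89.5%. Both pooled shares lay between those of the other classes. This order failed for GZMA in library 13, with 4 of 16 GZMB+ CD4 T cells against 35 of 166 GZMB+ CD8 T cells. For GNLY it failed in library 9, with 8 of 14 against 9 of 31. For CD28 the shares were 43.7%, 42.2% and 11.5%, and for CD40LG 21.2%, 8.48% and 1.03%. For ICOS, at 53.6%, 68.8% and 36.3%, the share was highest in the GZMB+ CD4 T cells.

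Dividing cells were present in each class. A UMI of MKI67, TOP2A, RRM2, TYMS or CCNA2 was found in 53 GZMB+ CD4 T cells (11.8%, 8.99 to 15.2), 8.02% of those without GZMB (6.61 to 9.63) and 13.6% of GZMB+ CD8 T cells. Thinned to 1500 UMIs the shares were 8.04%, 4.97% and 8.60%. In library 2 the shares of the CD4 classes were 22.4% and 14.4%, in library 5 11.5% and 21.1%, and in library 1 6.57% and 6.45%. Of 17 measured division genes only MCM3 went 1 way in all 3 libraries, at -1.05.

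The remaining lists compare CD4 T cells with and without GZMB in libraries 1, 2 and 11. Over all measured genes 19.1% were higher and 11.5% lower in all 3 libraries. Counts near these shares are no result about a list. Of 12 costimulation genes TNFRSF4, TNFRSF18 and SLAMF1 were higher and CD40LG and CD38 lower in all 3 libraries, at a median of 0.06. Of 13 glycolysis genes TPI1 and ENO1 were higher and the glucose transporter gene SLC2A3 lower (-0.05), and of 13 apoptosis genes BCL2L1 and BAX were higher and BCL2A1 was lower (0.12). Of 6 chemokine receptors CCR2 was higher and CCR7 and GPR183 lower (-0.20), and of the 2 NK-type receptors measured there KLRB1 was higher, at a list median of 0.63 that ran from -0.68 to 1.38 between libraries.

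The GZMB+ CD4 T cells also differed among libraries in genes outside the gate. TNFRSF4 was at 735 CPM in library 2 and at 11.6 and 0 CPM in libraries 5 and 3. TIGIT stood at 1328 to 2053 CPM in 6 libraries and at 235 and 176 CPM in libraries 1 and 13. CCL20, a chemokine for CCR6+ lymphocytes, was at 2007 CPM in library 11 and at 0 to 629 CPM in the others. IL7R was lowest in library 5, at 49.1 CPM, and highest in library 13, at 1978 CPM. CD69, an early activation and retention gene, was at 707 and 939 CPM in libraries 2 and 5 and at 2126 to 3414 CPM in the other 6. Within the first barcode set TIGIT ran from 235 to 2053 CPM and IL7R from 49.1 to 627, and within the second from 176 to 1824 and from 285 to 1978.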

How the data were processed

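The authors deposited counts as 1 matrix of raw UMIs per gene and barcode. The submitters' processing notes name Cell Ranger 3.1.0 and Seurat 3.1, with no role. Not given in the sources used here: genome build, annotation, kit per library and the label of each barcode number. The matrix holds 34628 genes and 57086 barcodes, and libraries held 3205412 to 19655788 UMIs. The 20606 barcodes that the authors kept had at least 800 genes and 1502 UMIs (median 3412). Their corrected values were not used. No doublet was removed.

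Counts were summed per class and library with Python 3.11.15, numpy 2.4.6, scipy 1.17.1, pandas 2.3.3 and matplotlib 3.10.9. Genes needed 30 UMIs over the compared cells and 1 in every library compared, both classes together, and libraries 20 cells of both classes. No test was run. B cells had at least 3 UMIs of MS4A1 and CD79A and more than of the CD3 genes, and plasma cells at least 1% JCHAIN and no CD3 UMI. The comparison was also run on simulated counts with known changes. Those counts held no variation between cells beyond counting error, so they do not measure false calls in these data. Genes named are those of 17 lists, given by counts with examples, and the 10 highest and 10 lowest medians among genes with 1 direction in every library, without the gate's genes. The cells, lists and rules were chosen with earlier results of these data known. Alternatives varied the GZMB and CD4 minimums, depth, doublet, dividing and myeloid cells, libraries, weights, scaling, prior count and filters. The list symbols CD27, FAS, FCGR3A, GZMH, KLRC1, KLRC2, KLRC3, KRT8, LILRA4, MAMU-DPA1, PKM, TPSAB1, TRDC, TRDV2, TRGC1, UBE2C and ZNF683 matched no gene and are not analysed here. Some members of the lists count in the list sizes and medians but are not reported here by name.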

Additional observations from a re-analysis of the deposited data

How the results depend on the processing

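The share of CD4 T cells with GZMB (22.7%) was 33.6% with a GZMB minimum of 1 UMI, 12.99% with 10, 19.0% in cells thinned to 1500 UMIs, 28.9% in cells of at least 3000 UMIs, 19.1% under a strict doublet rule (no B cell gene or JCHAIN UMI and none of the 1% of cells with most UMIs in a library) and 29.9% with a CD4 minimum of 2. It was 33.0% in the first barcode set and 11.7% in the second, and 19.5% to 25.2% with each library left out. Genes higher and lower than in CD4 T cells without GZMB (1378 and 831) numbered 282 and 239 with a GZMB minimum of 1, which let 6 libraries in, 536 and 407 thinned, 901 and 417 with a filter at 100 UMIs, 99 and 82 with at least 10 cells, and 139 and 134 with at least 10 cells without library 5. The first barcode set alone gave 1292 lower. Of the 1378 higher genes, 70.8% were also higher without dividing cells, 48.0% under the strict doublet rule and 18.0% thinned. Those settings measured 6714, 5887 and 1720 genes in place of 7199. With each library left out, 1729 to 2432 were higher and 1284 to 1409 lower, since fewer libraries had to share a direction. Against GZMB+ CD8 T cells (731 and 546) the counts were 207 and 141 with a GZMB minimum of 1, 141 and 115 with at least 10 cells, and 220.0 and 189 with at least 10 cells without library 5. There 365 were higher when thinned and 423 under the strict doublet rule, and 1041 were lower with a GZMB minimum of 10, 992 with a CD4 minimum of 2, 1122 in the first barcode set and 351 with a filter at 100 UMIs. Leaving out each library gave 848 to 1349 higher and 734 to 1122 lower. The second barcode set alone left 1 library in each comparison and no value. Of 2419 values of 108 gene results under these alternatives, 14 changed sign. Against CD4 T cells without GZMB these were TBC1D22B (0.012, GZMB minimum 1), MFSD12 (0.081, minimum 10), RAB27A (-0.35), TCF7 (0.22), IL1R1 (-0.93) and CGA (-0.037) when thinned, and UNC13D (0.085), TNFRSF18 (-0.40), TNFRSF4 (-0.14) and GSR (0.33) with a CD4 minimum of 2. Against GZMB+ CD8 T cells they were CCR7, at -0.044 thinned, -0.069 under the strict doublet rule and -0.33 with a CD4 minimum of 2, and CCL20, at -0.39 with that minimum. Beyond the number of libraries and genes compared, the cause was not tested. The settings without cells with myeloid RNA, with a CD4 minimum of 2, with at least 10 cells without library 5 and the shares of cells without library 5 were chosen after seeing the data. No paired analysis was possible because the replicate numbers of the labels are not tied to the barcode numbers; both comparisons were made inside libraries. A gene with 0 UMIs in a class of 10 to 16 cells is limited by depth.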
